A study of Mus musculus with 12 samples.

Results

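The comparison described here is of J1 mouse embryonic stem cells given vitamin C (VC) for 24 h with the same cells given distilled water (ddH2O) for 24 h. It holds 6 of the series' 12 samples, 3 VC and 3 ddH2O, chosen by their titles, and all 6 were hybridised to the same Agilent one-colour array design. J1 is an established male embryonic stem cell line. Both groups were gelatin adapted and grown on 0.2% gelatin with 15% Knockout Serum Replacement, β-mercaptoethanol and 1000 U/mL LIF, a cytokine of the interleukin-6 family that keeps such cells from differentiating. Knockout Serum Replacement is a serum substitute that itself contains a form of ascorbate, so ddH2O is the control for the added dose. The labels give the VC dose as 50 µg, with no volume beside it, and the ddH2O dose as 1 µL. Whether replicates are separate cultures is not in the labels, so p-values measure only how far these 3 samples spread, and that spread may be technical. The question stated for the series is which genes vitamin C regulates in these cells.

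Vitamin C, or ascorbate, enters cells through the sodium-coupled carriers Slc23a1 and Slc23a2, and in its oxidised form through glucose transporters. Inside the cell it donates electrons, and it keeps the iron of the 2-oxoglutarate dioxygenases reduced. These enzymes include the TET proteins, which oxidise 5-methylcytosine, the JmjC histone demethylases, the prolyl hydroxylases of collagen and those that mark hypoxia-inducible factor for degradation. In mouse embryonic stem cells it is best known for promoting DNA demethylation by the TET proteins. An expression array measures none of these activities. It measures how much RNA of each gene the cells held.

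Of 41174 probes on the array, 27479 matched 1 gene symbol, which gave 18749 genes, and 14531 of these passed the filter for testing, a signal well above background on 3 or more arrays. A gene's level below is its scaled intensity, the brightness of its brightest probe after the arrays had been set to the same 75th percentile. Between 67.1% and 70.4% of an array's spots were well above background and none was saturated. Levels of different genes cannot be compared on this scale, because probes differ in brightness. Differences are log2 values, VC minus ddH2O, with their standard error, from a fit over 3 arrays against 3, and a gene was called at a Benjamini-Hochberg adjusted p under 0.05 in limma.

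Of the 3 slides used, the one shared by both groups carried ddH2O 2, ddH2O 3, VC 1 and VC 2. ddH2O 1 and VC 3 each had a slide of their own, and that of VC 3 was scanned on another day. The difference within the shared slide is therefore given beside that over all 6 arrays. Array correlations were 0.9949 to 0.9969 among the VC arrays, 0.9963 to 0.9974 among the ddH2O arrays and 0.9925 to 0.9955 between the groups.

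The cells carried the RNA of stem cells in both groups. All 11 embryonic stem cell markers with a probe were well above background, and their summed scaled intensity was 389400 to 440200 in ddH2O and 413000 to 445000 in VC, ranges that overlap. Such sums follow the brightest probes most. Of the 11 markers 5 were called higher in VC (45.5%, against 6.59% of all genes) and none lower, with a median of 0.16. The rises numbered 0 without ddH2O 2, 1 without VC 1 and 3 without ddH2O 1. Counts under other processing are not given for these markers. Oct4 (Pou5f1), the defining transcription factor of these cells, measured 7108, 7181 and 8839 in ddH2O and 8246, 7231 and 7913 in VC, and the groups overlapped (0.02 ± 0.10, adjusted p = 0.9). Of 16 fibroblast markers, which would report feeder cells, Lum, Postn and Fap were not well above background on enough arrays to be tested. The summed level of the other 13 was 2983 to 3212 in ddH2O and 2357 to 2577 in VC, without overlap. Of 11 blood and endothelium markers, 6, including Ptprc, Cdh5, Kdr and Spi1, did not reach the filter, and the sum of the other 5 was 744 to 785 in ddH2O and 516 to 555 in VC. The largest fall among those 5 was in Cd34, a surface protein of blood and endothelial progenitors, which measured 438, 381 and 382 in ddH2O and 176, 223 and 208 in VC (-0.99 ± 0.11, adjusted p = 0.0072). Cd34 was the only member of the 5 that was called, and most of the fall in the sum was its own. What part these levels had in the differences below was not tested.

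Many genes differed between the groups by small amounts, and more fell than rose. Of the 14531 genes tested, 958 rose (6.59%) and 1533 fell (10.5%), 17.1% in all, and 34.7% had an unadjusted p under 0.05. The median change of a called gene was 0.33 upward and -0.42 downward, against a median standard deviation between arrays of 0.083 in ddH2O and 0.090 in VC. Changes of at least 1.5-fold were found in 38 genes that rose (0.262%) and 348 that fell (2.39%). At 2-fold or more in the measured values there were 2 rises (0.0138%) and 39 falls (0.268%). In 1 of those rises and 9 of those falls the lower group had no array well above background, and with such genes held at the bound described below, 1 rise and 32 falls remained past 2-fold, and 38 and 343 past 1.5-fold. The 3 arrays of one group all lay above the 3 of the other in 2931 genes higher in VC (20.2%) and 3180 lower (21.9%), and every called gene was among them. For a called gene named below, the separation of its arrays is therefore no support beyond the call. The first principal component held 43.7% of the variance and separated the groups.

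Within the shared slide, with 2 arrays against 2, limma called 0 genes at an adjusted p under 0.05 (0%), and the lowest adjusted p was 0.056. At an unadjusted p under 0.05 there were 1647 genes higher (11.3%) and 2243 lower (15.4%), and 88.8% of these 3890 had the same sign between VC 3 and ddH2O 1, a pair of arrays that this fit does not use. In that pair slide and group cannot be told apart, and the scan days differ. The same-sign share of all genes is not given, so the 88.8% has no background beside it. Over all genes the 2 differences correlated at 0.47. With an intensity trend and a robust variance, a setting added after seeing the data, 787 genes were higher and 1258 lower within the shared slide, and 1676 of these 2045 were also called over 6 arrays. The arrays of that slide are among the 6, so this overlap rests on shared data and is no separate support. The median difference of the called genes within the shared slide was 0.30 for those that rose and -0.41 for those that fell. Their sign there is fixed by the absence of overlap.

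**Figure D1:**
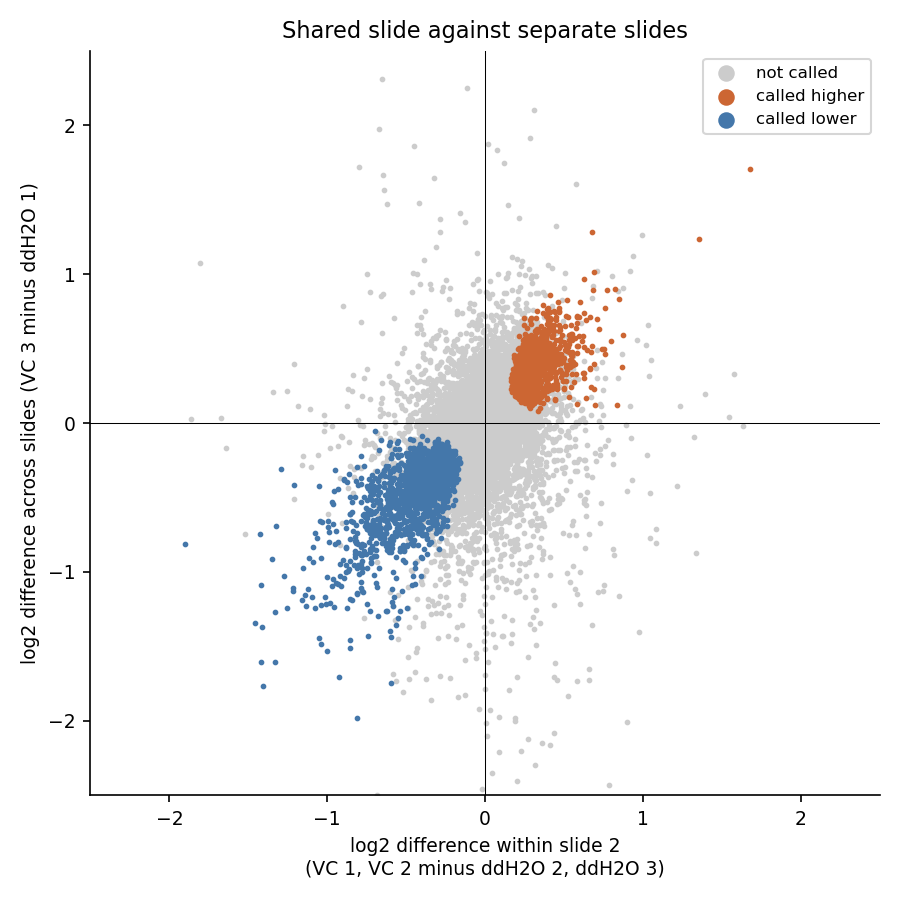
Each point is 1 of the 14531 genes tested; the x axis is the log2 difference of VC 1 and VC 2 minus ddH2O 2 and ddH2O 3 on their shared slide, and the y axis that of VC 3 minus ddH2O 1, which lay on separate slides. Orange points were called higher and blue points lower over all 6 arrays; 20 genes lie outside the axes, and the grey cloud is wider along the y axis, where each value rests on 1 array per group.

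The number of calls depended on each array. It was 183 higher and 583 lower without ddH2O 1, 62 and 335 without ddH2O 2, 741 and 1003 without ddH2O 3, 133 and 505 without VC 1, 590 and 1220 without VC 2, and 386 and 934 without VC 3. In all 6 of these fits 361 genes were called, 14.5% of the calls, of which 53 rose and 308 fell. How many of these 6 fits called a gene is given below for the genes the results turn on, as its leave-one-out count, or count for short. For a list with 3 or more members called in a direction, that number is given without each array whose omission moved it by more than 1.5 times, and under each other scaling, background treatment, filter, probe rule or variance model that did so. In smaller groups the genes' own counts show this. Without the trend and robust variance, limma called none of the genes below within the shared slide. With them it called 132 of the 166 genes that the naming rule took and that were called over 6 arrays. Those genes were picked by calls over arrays that include the shared slide, so this share is no separate support.

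The balance of rises and falls changed with the level of the gene and with the scaling. In the dimmest of 4 equal bins of genes, with a median scaled intensity of 35.1, 102 were called higher and 485 lower, and in the brightest bin, with a median of 5832, 268 and 135. The median difference was -0.06 in the dimmest bin and 0.04 in the brightest, and after quantile normalization it was -0.02 and 0.01. The majority of rises in the brightest bin turned into 155 rises and 193 falls after quantile normalization, 196 and 209 with normexp background correction, and 154 and 186 with cyclic loess normalization, a setting added after seeing the data, while falls outnumbered rises in the dimmest bin under all of these. Rises made up 38.5% of the calls, 56.7% when arrays were scaled to their median and 49.3% when they were scaled to the spiked-in RNA. Median scaling and spike-in scaling raised the median of all genes by 0.05, and the medians of lists with it, so a list median nearer to 0 than 0.1 gives no direction. For list medians beyond that, values that moved by more than 1.5 times are given. Lists of dim genes, such as those of lineage regulators, are thus set against a background in which falls outnumber rises. In the bin next to the dimmest, with a median of 289, 287 of 3633 genes were called higher and 580 lower. The germline, BMP, Notch, growth factor, VEGF and Wnt lists, with median levels of 335, 320, 302, 229, 226.5 and 198, were among the lists near that median. Shares of all genes given below are not matched for level.

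**Figure D2:**
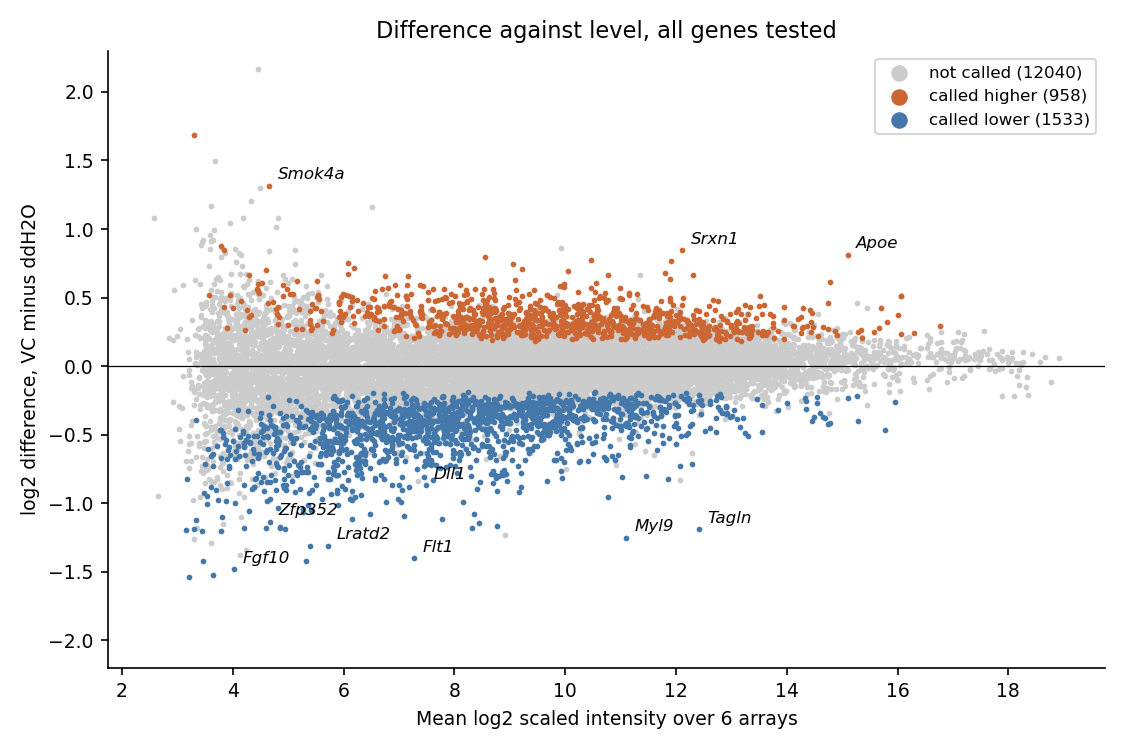
The log2 difference, VC minus ddH2O, of each gene tested (y axis) is plotted against its mean log2 scaled intensity over 6 arrays (x axis), with 958 genes called higher in orange, 1533 called lower in blue and the rest in grey. Blue points are more numerous at low levels and orange ones at high levels, and 1 gene lies outside the y axis.

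Flt1, Myl9, Lratd2 and Rflna were among the 12 genes with the largest falls. Flt1, which encodes the VEGF receptor VEGFR1, measured 263, 254 and 239 in ddH2O and 91.0, 94.2 and 101 in VC and the groups lay far apart. The difference was -1.40 ± 0.067, adjusted p = 0.0031 over all arrays and -1.41 within the shared slide, and a second Flt1 probe gave -1.72. Myl9, a regulatory light chain of smooth muscle myosin, measured 3247, 3643 and 3286 in ddH2O and 1450.2, 1455 and 1371 in VC (-1.25 ± 0.066, adjusted p = 0.0031). Lratd2 measured 89.1, 92.8 and 70.3 in ddH2O and 31.9, 32.3 and 37.0 in VC (-1.31 ± 0.12, adjusted p = 0.0059), and Rflna, a filamin-binding protein of the cytoskeleton, measured 65.2, 64.0 and 68.9 in ddH2O and 23.4, 26.4 and 30.6 in VC (-1.31 ± 0.10, adjusted p = 0.0051). In each of these genes the 3 VC arrays lay far below the 3 ddH2O arrays, which their choice as the largest called falls implies. The leave-one-out count of each was 6 of 6. Kctd12b measured 45.0, 49.2 and 45.7 in ddH2O and 26.6, 15.6 and 20.6 in VC (-1.19 ± 0.18, adjusted p = 0.013, leave-one-out count 5). Cacna1g, a T-type calcium channel subunit, measured 56.7, 56.2 and 88.7 in ddH2O and 31.9, 24.7 and 18.7 in VC. Its difference was -1.42 ± 0.25, a second probe gave -0.36, and the leave-one-out count was 5.

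Other large falls ended below what the arrays could resolve. Fgf10, a fibroblast growth factor of limb and lung buds, measured 28.1, 28.8 and 24.9 in ddH2O and 9.29, 10.8 and 9.25 in VC, and no VC array was well above background. For such genes the fold is given as a nominal bound. Dim values under the lowest signal that counted as well above background on their array were raised to that signal. A signal above that lowest one need not itself count, so the bound is not strict. For Fgf10 the nominal bound was 2.67-fold lower in VC (adjusted p = 0.0031, leave-one-out count 6). These genes passed the filter only through their ddH2O arrays. Their p-values and counts come from the measured values, those at background included, and are no support for the bound. By the same rule Clec10a, a macrophage lectin, was at least 1.83-fold lower, Dct, a pigment enzyme, at least 1.68-fold, Krtap6-2, a hair keratin-associated protein, at least 1.60-fold, and the zinc finger gene Myt1 at least 1.37-fold lower. Their place among the 12 largest falls rests on values at background, and at the bound these 4 are under 2-fold. Their adjusted p-values were 0.022, 0.025, 0.023 and 0.016, and their leave-one-out counts 4, 2, 3 and 5. Lpar3, a receptor for lysophosphatidic acid, measured 24.3, 21.1 and 17.8 in ddH2O and 6.28, 9.25 and 12.9 in VC, was well above background on 1 VC array and had a leave-one-out count of 1 (-1.20 ± 0.26, adjusted p = 0.029).

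The largest rises were smaller than the largest falls. Srxn1, sulfiredoxin, which restores over-oxidised peroxiredoxins, measured 3267, 3270.5 and 3397 in ddH2O and 6089, 5926 and 5829 in VC. That is a difference of 0.84 ± 0.051, adjusted p = 0.0031, 0.85 within the shared slide and 0.86 to 1.09 in its other probes. Apoe, the apolipoprotein that carries cholesterol between cells, measured 26193, 25432 and 28037 in ddH2O and 45868, 45513 and 48570 in VC (0.81 ± 0.062, adjusted p = 0.0045). Uap1l1, related to a pyrophosphorylase of the hexosamine pathway, measured 2901, 2823 and 3089.7 in ddH2O and 5098, 4916 and 4967 in VC (0.77 ± 0.057, adjusted p = 0.0043). Inhbb, the activin beta B subunit, measured 494, 441 and 465 in ddH2O and 764, 720.1 and 803 in VC (0.71 ± 0.070, adjusted p = 0.0061), with 0.26 in a second probe. All of these had a leave-one-out count of 6, and none of their VC arrays came near the ddH2O range. Smok4a, a sperm motility kinase gene, was dimmer and its VC arrays were further apart, at 15.8, 16.5 and 15.8 in ddH2O and 53.2, 32.3 and 37.1 in VC (1.32 ± 0.18, adjusted p = 0.0095, leave-one-out count 6).

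The remaining rises among the 12 of largest size held up less well. Zfp57, a zinc finger protein that protects imprints, measured 382, 368 and 489.5 in ddH2O and 719.6, 599.8 and 747 in VC (0.74 ± 0.14, adjusted p = 0.02), with a leave-one-out count of 2. Dhrsx measured 271, 269.5 and 321 in ddH2O and 511, 441 and 547 in VC (0.80 ± 0.11, adjusted p = 0.0097), with a count of 5 and 0.42 in a second probe. Msc, the transcription factor musculin, and Cyp2b13, a cytochrome P450, had differences of 0.75 and 0.72 and counts of 4 and 4. Mfsd4b5 and the olfactory receptor genes Olfr62 and Olfr1282 were near background, well above it on 1, 1 and 0 ddH2O arrays. The differences of Mfsd4b5 and Olfr62 were 0.85 and 0.88. By the nominal bound used above Olfr1282 was at least 1.79-fold higher, and its place among the 12 rests on ddH2O values at background. That gene passed the filter only through its VC arrays. The counts of the 3 genes were 4, 1 and 2.

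**Figure D3:**
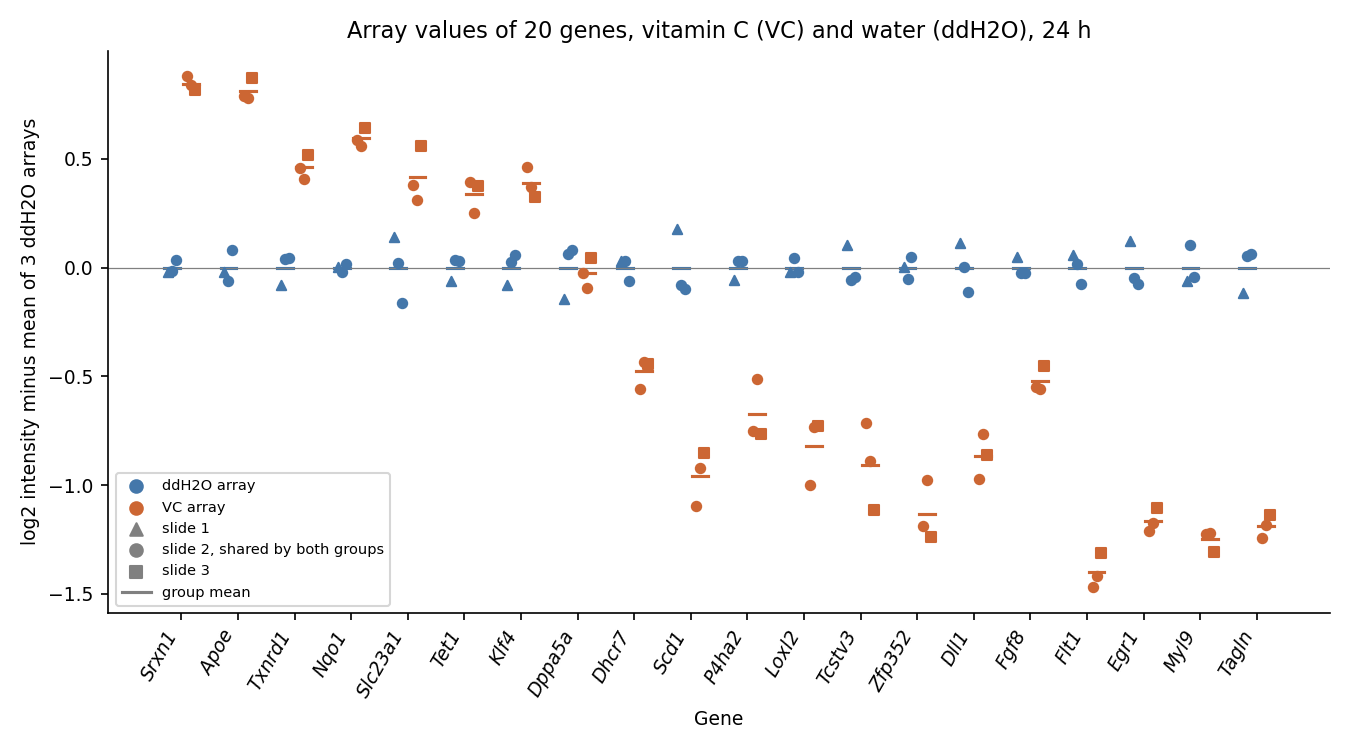
For 20 genes on the x axis, each point is 1 array, as log2 scaled intensity minus the mean of the 3 ddH2O arrays (y axis); blue is ddH2O, orange is VC, the short lines are group means and the marker shows the slide. The groups do not overlap in 19 of the genes, and in Dppa5a, a stem cell marker, they do.

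The genes that carry vitamin C into the cell and recycle it moved both ways, with 4 of 17 higher (23.5%, against 6.59% of all genes), 2 lower (11.8%, against 10.5% of all genes) and a median of 0.04, against -0.00 over all genes tested. Slc23a1, a sodium-coupled ascorbate carrier, measured 185, 169.5 and 149.6 in ddH2O and 217, 207 and 246 in VC. The groups did not overlap (0.42 ± 0.10, adjusted p = 0.04) and a second probe gave 0.57, but the leave-one-out count was 0. Slc23a2, the other carrier, measured 220.4, 203 and 200.3 in ddH2O and 211, 186 and 228 in VC and overlapped (-0.00 ± 0.089, adjusted p = 0.99), as did the glucose transporter Slc2a1 at 57819, 60160 and 59697 in ddH2O and 59837, 60451 and 60782 in VC (0.03 ± 0.049, adjusted p = 0.73). Txnrd1, thioredoxin reductase, which can reduce oxidised ascorbate, measured 22212, 24095 and 24202 in ddH2O and 32290, 31110 and 33570 in VC (0.46 ± 0.062, adjusted p = 0.0095) and was called in all 6 leave-one-out fits. The thioltransferase Glrx rose by 0.28 ± 0.059 (leave-one-out count 1), while Gsto2, a dehydroascorbate reductase, and Slc2a4, a glucose transporter, fell (-0.45 ± 0.12 and -0.35 ± 0.057, counts 1 and 3). The list's count of rises was 1 without ddH2O 1, ddH2O 2, ddH2O 3, VC 1 or VC 2, and 2 without VC 3, and that of falls 0 without ddH2O 1, ddH2O 2 or VC 1, and 1 without ddH2O 3 or VC 3. For the transport and recycling list the rises numbered 1 without the filter.

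Among genes of DNA methylation and its removal, 3 of 19 rose (15.8%, against 6.59% of all genes) and none fell, with a median of 0.09. Tet1, the main TET dioxygenase of these cells, measured 2205, 2359 and 2353 in ddH2O and 3023, 2739.5 and 2993 in VC. All VC arrays were above all ddH2O arrays (0.34 ± 0.064, adjusted p = 0.021, 0.29 within the shared slide), with a leave-one-out count of 2. Tet2 measured 423, 455 and 464 in ddH2O and 503, 494 and 418 in VC (0.07 ± 0.088, adjusted p = 0.6) and Tet3 measured 157, 134 and 142 in ddH2O and 134, 133 and 164 in VC (-0.01 ± 0.11, adjusted p = 0.96), and in both the groups overlapped. Zfp57 was also among the rises. Rises in this list numbered 0 without ddH2O 1, ddH2O 2, VC 1 or VC 3. For the same list the rises numbered 1 without the filter and 6 with trend and robust variance. Of the JmjC histone demethylases, 3 of 25 rose (12%, against 6.59% of all genes) and none fell (median 0.11). The Y-linked Kdm5d rose by 0.43 ± 0.068, Kdm8 by 0.43 ± 0.085 and the H3K27 demethylase Kdm6a by 0.23 ± 0.055. Their leave-one-out counts were 5, 1 and 0, and rises here numbered 0 without VC 1, and 1 without ddH2O 1, ddH2O 2, ddH2O 3 or VC 3. For these demethylases the rises numbered 1 without the filter, 6 with spike-in scaling and 7 with median scaling or with trend and robust variance, and the median was 0.07 with normexp.

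The genes of collagen hydroxylation and assembly moved both ways, 1 of 16 higher (6.2%, against 6.59% of all genes) and 3 lower (18.8%, against 10.5% of all genes). Their median of -0.03 turned positive, to 0.02 and 0.01, under median and spike-in scaling. P4ha2, a catalytic subunit of collagen prolyl 4-hydroxylase, measured 2079, 2211 and 2208 in ddH2O and 1287, 1520 and 1273 in VC (-0.68 ± 0.083, adjusted p = 0.0086). Loxl2, a lysyl oxidase that cross-links collagen, measured 4870.2, 5094 and 4868 in ddH2O and 2469, 2972 and 2987 in VC (-0.82 ± 0.087, adjusted p = 0.007), with -0.82 in a second probe. Both were called in all 6 leave-one-out fits, and in both the lowest ddH2O array was well above the highest VC array. P4ha1, the other main catalytic subunit, measured 1616, 1640.3 and 1592 in ddH2O and 1241, 1415 and 1586 in VC, and its groups did not overlap but it was not called (-0.20 ± 0.094, adjusted p = 0.18). P3h3, a prolyl 3-hydroxylase family member, fell and the collagen galactosyltransferase Colgalt1 rose (-0.28 ± 0.072 and 0.26 ± 0.065), each with a leave-one-out count of 0. Of the other 2-oxoglutarate dioxygenases, 3 of 19 rose (15.8%, against 6.59% of all genes) and 1 fell (5.3%, against 10.5% of all genes). The rises were in Egln2, a prolyl hydroxylase of hypoxia-inducible factor (0.48 ± 0.080), P4htm, a transmembrane prolyl hydroxylase (0.35 ± 0.076), and Alkbh4 (0.29 ± 0.052), and the fall was in Asph, an aspartyl hydroxylase (-0.42 ± 0.066). Their counts were 3, 1, 3 and 4, and the list's rises were 0 without ddH2O 1, ddH2O 2 or VC 1. For this list the rises numbered 5 with median scaling. Egln1, the main enzyme of that family, measured 978, 983 and 1045 in ddH2O and 1130.1, 1145 and 1111 in VC, without overlap and without a call (0.17 ± 0.053, adjusted p = 0.072).

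Of the antioxidant genes that were called, all were higher in VC. NRF2, encoded by Nfe2l2, is the transcription factor that switches on antioxidant and detoxifying enzymes when its partner Keap1 releases it, through the antioxidant response element TGACNNNGC. Of 20 genes of the list 7 rose (35.0%, against 6.59% of all genes) and none fell, with a median of 0.14. Besides Srxn1 and Txnrd1, Nqo1, a quinone reductase, measured 825, 809 and 832 in ddH2O and 1234, 1212 and 1283 in VC (0.60 ± 0.051, adjusted p = 0.0051). Gpx2, a glutathione peroxidase, measured 1201, 1172 and 1271 in ddH2O and 1868, 1879 and 1802 in VC (0.61 ± 0.056, adjusted p = 0.0059). In both genes the VC arrays were close together and all above the ddH2O arrays, and both had a leave-one-out count of 6. Gclm and Gclc, the subunits of the enzyme that starts glutathione synthesis, rose by 0.41 ± 0.088 and 0.23 ± 0.056 (counts 1 and 0), and Keap1 itself rose by 0.39 ± 0.083 (count 2). Nfe2l2 measured 5243, 4899 and 4339 in ddH2O and 4856, 4938 and 4564 in VC and overlapped (-0.01 ± 0.083, adjusted p = 0.95). Heme oxygenase, Hmox1, which was looked at after its values were seen, measured 6089, 5874 and 5767 in ddH2O and 6792, 2523 and 7408 in VC: VC 2 was low and the other VC arrays were above all ddH2O arrays, and it was not called (-0.23 ± 0.40, adjusted p = 0.71). Rises numbered 4 without ddH2O 1, ddH2O 2, VC 1 or VC 2, and in all 6 leave-one-out fits the same 4 genes, Srxn1, Txnrd1, Nqo1 and Gpx2, were called. For the antioxidant list the rises numbered 4 without the filter. Of the peroxide and superoxide enzymes, which include the peroxiredoxins, superoxide dismutases and catalase, 1 of 19 rose, Gpx1 (0.24 ± 0.058, count 0), and none fell.

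The antioxidant response element, searched on both strands in the 250 bases upstream of the gene's start in RefSeq sequence (GRCm38.p6), was found for 2 of the 6 called list members with a promoter in that table, Gclm and Txnrd1, and for 4 of the 8 not called. It was present for 13.9% of all tested genes with a promoter. The matches, in capitals with 40 bases on each side and read in the direction of the gene, show how the element sits in front of genes of this list that rose. They lie on the strand opposite to the gene, 134 to 126 bases upstream of the start in Gclm and 92 to 84 in 1 of 3 Txnrd1 promoters.
Gclm, chr3:122245383-122245471, + strand: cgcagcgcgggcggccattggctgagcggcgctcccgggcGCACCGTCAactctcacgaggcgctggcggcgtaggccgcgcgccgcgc
Txnrd1, chr10:82859074-82859162, + strand: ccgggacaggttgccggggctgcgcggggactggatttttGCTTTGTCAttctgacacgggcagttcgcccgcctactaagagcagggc

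Of the cholesterol synthesis genes that were called, all were lower in VC. Cholesterol is made from acetyl-CoA by the enzymes of this list, whose genes are switched on together by SREBP2 (Srebf2) through the sterol regulatory element when sterols are low. Of the 20 synthesis genes 9 fell (45.0%, against 10.5% of all genes) and none rose, with a median of -0.20. Dhcr7, which makes cholesterol from its last precursor, measured 14445, 14442 and 13530 in ddH2O and 9609.9, 10450 and 10406 in VC (-0.48 ± 0.061, adjusted p = 0.0089), with -0.25 in a second probe. Cyp51, which demethylates lanosterol, measured 1082, 999.7 and 957 in ddH2O and 758, 759 and 742 in VC (-0.43 ± 0.062, adjusted p = 0.011), and Tm7sf2, a sterol reductase, measured 4638, 4759 and 4758 in ddH2O and 3433, 3631 and 3558 in VC (-0.41 ± 0.051, adjusted p = 0.0086). In each of these the groups lay apart by several times the spread within them, and the leave-one-out counts were 6, 5 and 6. Srebf2 measured 1005, 960.0 and 1013 in ddH2O and 920, 875 and 1086 in VC and overlapped (-0.05 ± 0.090, adjusted p = 0.71). The list's falls numbered 3 without ddH2O 2, 4 without VC 1, and 5 without ddH2O 1.

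Of 22 genes of sterol uptake, sterol export and fatty acid synthesis, 10 fell (45.5%, against 10.5% of all genes) and none rose, with a median of -0.18. Scd1, which desaturates stearate, measured 2755, 2308 and 2274 in ddH2O and 1138, 1287 and 1350.5 in VC (-0.96 ± 0.10, adjusted p = 0.0071). Abcg1, which exports cholesterol and is a target of the sterol-sensing LXR receptors, measured 522, 541 and 526 in ddH2O and 284, 324 and 313 in VC (-0.79 ± 0.065, adjusted p = 0.0051). Both kept their call in all 6 leave-one-out fits. Stard4, a cholesterol carrier, measured 2149.8, 2346 and 2081 in ddH2O and 1419, 1647 and 1345 in VC (-0.58 ± 0.092, adjusted p = 0.014, count 4). The falls took in sterol export as well as sterol transfer inside the cell and fatty acid synthesis. The falls numbered 2 without ddH2O 2 or VC 1, 4 without ddH2O 1 or VC 3, and 6 without ddH2O 3. For these genes the falls numbered 4 without the filter, 5 without background subtraction and 6 with median scaling or with spike-in scaling. Among 10 apolipoprotein and lipoprotein genes Apoe rose, Clu (-0.24 ± 0.062) and Lpl (-0.25 ± 0.061) fell, each with a count of 0, and the other 7 were not called.

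The sterol regulatory element TCACNCCAC was found upstream of 1 of the 11 called members of these lists with a promoter, Hmgcs1, and of 0 of the 19 not called, against 1.30% of all tested genes. Hmgcs1, the synthase that makes the substrate of the rate-limiting step, is shown for this match and measured 26757, 27052 and 24902 in ddH2O and 20132, 20623 and 19940 in VC (-0.37 ± 0.056, adjusted p = 0.012, count 4). The element lies 137 to 129 bases upstream.
Hmgcs1, chr13:119690174-119690262, + strand: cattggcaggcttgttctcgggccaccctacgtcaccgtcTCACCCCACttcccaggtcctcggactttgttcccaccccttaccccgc

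Genes of naive pluripotency, the state of mouse stem cells held in LIF, were higher in VC more often than lower. Of 18 tested 7 rose (38.9%, against 6.59% of all genes) and 1 fell, with a median of 0.20. Klf4 measured 18562, 19979 and 20408 in ddH2O and 27074, 25372 and 24607 in VC (0.39 ± 0.065, adjusted p = 0.016), and Esrrb, an orphan nuclear receptor, measured 7518, 7229.9 and 8101 in ddH2O and 9853, 10152 and 10027 in VC (0.40 ± 0.061, adjusted p = 0.013). Tcl1, a co-activator of AKT, measured 1212, 1299.7 and 1425 in ddH2O and 1823, 1728 and 1992 in VC (0.49 ± 0.085, adjusted p = 0.017). All 3 were without overlap, with leave-one-out counts of 3, 5 and 3. Gbx2 rose by 0.45 ± 0.082 and Klf5 by 0.43 ± 0.096 (counts 4 and 2). The list's count of rises was 0 without ddH2O 2, 1 without VC 1, and 3 without ddH2O 1.

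The member that fell, Dppa3, which protects methylation in the egg and marks germ cells, measured 1605 and 1527 in ddH2O 1 and ddH2O 2 and 1334, 1218 and 1262 in VC, and the fit left out the spot of ddH2O 3, which the scanner software had marked as an outlier. Its difference of -0.30 ± 0.070, adjusted p = 0.043 became 0.19 with that spot kept and 0.18 in the deposited series values, and was not called in either. Its leave-one-out count was 1.

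Of the core pluripotency genes 3 of 11 rose (27.3%, against 6.59% of all genes) and none fell (median 0.16). Foxd3 measured 96.6, 94.8 and 106 in ddH2O and 173, 132 and 145 in VC (0.59 ± 0.11, adjusted p = 0.02), Sall4 rose by 0.44 ± 0.071 and Utf1 by 0.35 ± 0.091. Their leave-one-out counts were 4, 4 and 2, and the rises numbered 0 without ddH2O 2, and 1 without ddH2O 1 or VC 1. For the core genes the rises numbered 1 without the filter. Sox2 measured 3968, 4174 and 3985 in ddH2O and 4739.6, 4668 and 4146 in VC, and the groups overlapped (0.16 ± 0.069, adjusted p = 0.16). No probe matched Nanog. In the LIF pathway LIF acts through its receptor Lifr and STAT3. Of its 14 genes 3 rose (21.4%, against 6.59% of all genes) and 2 fell (14.3%, against 10.5% of all genes). Lifr rose by 0.41 ± 0.11 (count 0), Socs2, a feedback inhibitor of cytokine receptors, by 0.50 ± 0.071 (count 5) and Bcl3 by 0.34 ± 0.064 (count 3). Socs1 (-0.28 ± 0.065) and Junb (-0.29 ± 0.067) fell, with counts of 0 and 1. Stat3 measured 7158, 7499.6 and 7408 in ddH2O and 7538, 7525 and 7958 in VC (0.06 ± 0.054, adjusted p = 0.46). Of the primed epiblast genes, which mark the later state, 2 of 11 rose (18.2%, against 6.59% of all genes), Etv4 (0.36 ± 0.067) and Zic2 (0.23 ± 0.049). Otx2 fell (-0.23 ± 0.051, 9.1% of the list, against 10.5% of all genes). The counts of Etv4, Zic2 and Otx2 were 2, 0 and 0. Rises of the LIF list numbered 0 without ddH2O 2, and 1 without ddH2O 1 or VC 1, and under other processing the rises numbered 5 with trend and robust variance.

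Most of the transcripts tested for the two-cell-like state fell. These genes are active in the embryo just after the first division and in a small, changing share of cultured stem cells, so fewer such cells and less RNA per cell cannot be told apart in these bulk samples. Of 9 tested 7 fell (77.8%, against 10.5% of all genes) and none rose, with a median of -0.76. Zfp352 measured 38.0, 36.5 and 39.2 in ddH2O and 16.7, 19.3 and 16.1 in VC (-1.13 ± 0.083, adjusted p = 0.0041). Tcstv3 measured 195, 175 and 176 in ddH2O and 111, 98.2 and 83.9 in VC (-0.91 ± 0.11, adjusted p = 0.0086), and Tcstv1 measured 669, 637 and 671 in ddH2O and 367, 371 and 369.6 in VC (-0.84 ± 0.051, adjusted p = 0.0031). In these genes all VC arrays lay below all ddH2O arrays, and each had a leave-one-out count of 6. Zscan4c, a marker of the state, had a smaller difference (-0.45 ± 0.059, adjusted p = 0.0092, count 6). Several of these genes have near-identical copies, so their probes may report more than 1 gene. The falls of this list numbered 4 without ddH2O 1. The size depended on the treatment of background: for the two-cell list the median was -0.37 with normexp and -0.42 without background subtraction, with 7 falls under both. Of 29 germline genes 5 fell (17.2%, against 10.5% of all genes) and 1 rose (3.4%). In the bin of genes nearest in level 580 of 3633 fell, a share close to that of this list. Dazl, an RNA-binding protein of germ cells, measured 1727, 1742 and 1684 in ddH2O and 1338, 1265 and 1309 in VC (-0.40 ± 0.052, adjusted p = 0.0091, count 5). Smc1b, a meiotic cohesin, and Taf7l fell (-0.51 ± 0.080 and -0.43 ± 0.067) and Tex15 rose (0.29 ± 0.053), with counts of 4, 4 and 3. The falls of this list were 0 without ddH2O 2, 1 without VC 1, and 3 without ddH2O 1 or VC 3. For the germline list the falls numbered 3 with median scaling, with spike-in scaling or without the filter.

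Immediate early genes and genes of contractile cells share the serum response factor, SRF, which binds the CArG box. Of 20 immediate early genes 6 fell (30.0%, against 10.5% of all genes) and 1 rose (5.0%, against 6.59% of all genes; median -0.17). Egr1 measured 712, 634 and 621 in ddH2O and 283, 289.8 and 304 in VC, with a wide gap between the groups (-1.16 ± 0.071, adjusted p = 0.0031, -1.13 within the shared slide). Atf3, a stress-induced factor, measured 180.3, 192 and 193 in ddH2O and 129, 125 and 126 in VC (-0.57 ± 0.054, adjusted p = 0.006). Both had a leave-one-out count of 6. Egr2, near background, measured 20.8, 18.1 and 17.6 in ddH2O and 11.9, 11.4 and 14.3 in VC (-0.59 ± 0.11, adjusted p = 0.02, count 3), and Egr4 was the gene that rose, at 60.1, 56.3 and 65.9 in ddH2O and 84.6, 85.4 and 82.7 in VC (0.47 ± 0.070, adjusted p = 0.012, count 5). The Egr genes did not move together. Falls numbered 2 without ddH2O 2, and 3 without ddH2O 1 or VC 1, and rises 0 without ddH2O 2, and 2 without ddH2O 3. For the immediate early list the falls numbered 3 without the filter, and the median was -0.09 with normexp or without background subtraction.

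Of 25 SRF and contractile genes 6 fell (24.0%, against 10.5% of all genes) and 2 rose (8.0%, against 6.59% of all genes), with a median of -0.07. Besides Myl9, the actin-binding protein transgelin, Tagln, measured 7582, 8518 and 8571 in ddH2O and 3469.6, 3612 and 3728 in VC (-1.19 ± 0.069, adjusted p = 0.0031), with -1.18 in a second probe and a leave-one-out count of 6. Cnn1, calponin, measured 1265, 1279.7 and 1308 in ddH2O and 739, 886 and 906 in VC (-0.61 ± 0.087, adjusted p = 0.011, count 5). The cytoplasmic actin gene Actg1 went the other way, at 55890, 57058 and 58101 in ddH2O and 80603, 73423 and 90834 in VC (0.51 ± 0.085, adjusted p = 0.016, count 3), as did Acta2, smooth muscle actin, by 0.30 ± 0.060, whose other probes gave -0.18 and 0.51 and whose count was 1. Srf measured 1404, 1358 and 1345 in ddH2O and 1378, 1537 and 1575 in VC and overlapped (0.13 ± 0.068, adjusted p = 0.23). The falls were 2 without ddH2O 2, and 3 without ddH2O 1, VC 1, VC 2 or VC 3, and the rises 0 without ddH2O 1, ddH2O 2 or VC 1, and 1 without VC 2 or VC 3. For the contractile list the falls numbered 3 without the filter.

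A CArG box was present upstream of 4 of the 13 called members of both lists with a promoter, against 3 of the 23 not called and 1.51% of all tested genes. They are Myl9, Filip1l and Egr2, which fell, and Actg1, which rose, so that the same element stood in front of genes that moved in opposite directions. Filip1l measured 60.8, 62.5 and 75.8 in ddH2O and 50.8, 47.3 and 46.3 in VC (-0.46 ± 0.097, adjusted p = 0.027, count 1). The boxes are in capitals, 161 to 152 bases upstream in Myl9, 62 to 53 in Filip1l, 72 to 63 in the Egr2 promoter shown, 1 of 5 in the table, and 90 to 81 in Actg1.
Myl9, chr2:156775263-156775352, + strand: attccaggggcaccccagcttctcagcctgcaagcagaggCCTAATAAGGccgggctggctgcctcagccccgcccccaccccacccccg
Filip1l, chr16:57549140-57549229, + strand: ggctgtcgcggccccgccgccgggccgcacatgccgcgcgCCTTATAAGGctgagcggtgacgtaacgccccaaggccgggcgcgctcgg
Egr2, chr10:67537757-67537846, + strand: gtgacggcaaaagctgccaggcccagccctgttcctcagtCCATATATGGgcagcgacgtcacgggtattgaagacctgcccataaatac
Actg1, chr11:120348536-120348625, - strand: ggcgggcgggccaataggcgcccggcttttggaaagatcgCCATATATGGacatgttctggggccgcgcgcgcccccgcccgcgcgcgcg

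Notch signalling passes from ligands of the Delta and Jagged families on one cell to Notch receptors on its neighbour, which then induce Hes and Hey repressors. Of 23 genes tested 9 fell (39.1%, against 10.5% of all genes) and none rose, with a median of -0.13. Among ligands, Dll1 measured 260.5, 241 and 223 in ddH2O and 123, 142 and 133 in VC (-0.87 ± 0.083, adjusted p = 0.0061) and Dll3 measured 399, 389 and 429.6 in ddH2O and 266, 307 and 270.2 in VC (-0.53 ± 0.078, adjusted p = 0.011). Both were without overlap, with a count of 6. Among targets, Hey1 measured 332, 314 and 315 in ddH2O and 179, 234 and 211 in VC (-0.63 ± 0.10, adjusted p = 0.015, count 4). Falls numbered 3 without ddH2O 1, and 4 without ddH2O 2 or VC 1. For the Notch list the median was -0.08 with median scaling, -0.09 with spike-in scaling and -0.07 with normexp.

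In the fibroblast growth factor list 4 of 25 fell (16.0%, against 10.5% of all genes) and 2 rose (8.0%, against 6.59% of all genes), shares near the background, with a median of -0.06. Fgf13, an intracellular family member, fell (-0.27 ± 0.070). Among ligands, beside Fgf10, Fgf8 measured 107, 102 and 102 in ddH2O and 70.6, 70.1 and 75.6 in VC (-0.52 ± 0.058, adjusted p = 0.0074, count 6) and Fgf3 measured 20.8, 18.9 and 22.4 in ddH2O and 14.8, 15.4 and 10.6 in VC (-0.62 ± 0.15, adjusted p = 0.041, count 2). Spry2, a feedback inhibitor, rose by 0.38 ± 0.063, with 0.01 in a second probe, as did the ETS factor Etv4, given above. The falls were 2 without ddH2O 1, ddH2O 2, ddH2O 3 or VC 1, and the rises 0 without ddH2O 1, ddH2O 2 or VC 1, 1 without VC 3, and 4 without ddH2O 3. For the growth factor list the falls numbered 2 with normexp, without background subtraction or without the filter. Of 13 genes of VEGF and angiopoietin signalling 3 fell (23.1%, against 10.5% of all genes) and none rose. Besides Flt1, the co-receptor Nrp2 measured 249, 222 and 226 in ddH2O and 141, 134 and 123 in VC (-0.81 ± 0.078, adjusted p = 0.0061, count 6), and the ligand Vegfd fell (-0.36 ± 0.064, count 4). Kdr, the main VEGF receptor of endothelium, was not tested, being below the background filter.

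Of 36 Wnt genes 8 fell (22.2%, against 10.5% of all genes) and 1 rose (2.8%, against 6.59% of all genes), with a median of -0.16. Sp5, a direct target of the pathway in stem cells, measured 174, 182 and 179 in ddH2O and 112, 130.2 and 113 in VC (-0.60 ± 0.074, adjusted p = 0.0087), and Dkk3, of the Dickkopf family, measured 237, 237 and 244 in ddH2O and 155, 174 and 159 in VC (-0.56 ± 0.062, adjusted p = 0.0077). Both had a count of 6. Rnf43, a target that removes Wnt receptors, fell (-0.60 ± 0.11, count 3), and Sfrp2, a secreted antagonist, rose (0.24 ± 0.056, count 0). The falls were 2 without ddH2O 1, ddH2O 2 or VC 1, 4 without ddH2O 3, and 5 without VC 3. For the Wnt list the falls numbered 2 without the filter, 4 with spike-in scaling, with normexp or without background subtraction and 5 with the mean of all probes, and the median was -0.08 with normexp or without background subtraction. In the BMP list 4 of 21 fell (19%, against 10.5% of all genes) and 1 rose (4.8%, against 6.59% of all genes). In the bin of genes nearest in level 580 of 3633 fell, a share near that of this list. Bmp8b fell most clearly, at 109, 106 and 99.2 in ddH2O and 68.2, 70.6 and 64.3 in VC (-0.63 ± 0.064, adjusted p = 0.0063, count 6). Bmp6 and the target Msx2 also fell (-0.46 ± 0.11 and -0.39 ± 0.061, counts 2 and 3), while Bmp4 rose (0.42 ± 0.086, count 1). This list's falls were 1 without ddH2O 1, ddH2O 2 or VC 1, and 2 without ddH2O 3. For the BMP list the falls numbered 1 with normexp or without background subtraction and 2 with spike-in scaling or without the filter.

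Keratins and other genes of trophectoderm, the outer layer of the blastocyst, were among the falls. Of 16 tested 7 fell (43.8%, against 10.5% of all genes) and 1 rose, with a median of -0.22, and their summed level was 16900 to 17670 in ddH2O and 14460 to 15150 in VC. Krt7 measured 648, 645 and 637 in ddH2O and 277, 459 and 411 in VC (-0.78 ± 0.18, adjusted p = 0.034), Krt19 measured 2672, 2905 and 2934 in ddH2O and 1694, 1915 and 2066 in VC (-0.59 ± 0.087, adjusted p = 0.012) and Krt18 measured 4434, 4684 and 4394 in ddH2O and 3163, 3396 and 2852 in VC (-0.53 ± 0.078, adjusted p = 0.012). Krt8, Krt18 and Krt19 are keratins of simple epithelia at large, and the regulators Gata3, Elf5, Hand1 and Dlx3 did not reach the background filter. The counts of Krt7, Krt19 and Krt18 were 2, 5 and 5, and the list's falls numbered 0 without ddH2O 2, 2 without ddH2O 1, 3 without VC 1, and 4 without ddH2O 3 or VC 3. For the trophectoderm list the falls numbered 4 without the filter, and the median was -0.10 with normexp and -0.11 without background subtraction. Tead4 rose (0.27 ± 0.061, count 1). In the adhesion list, which shares the keratins, 8 of 24 fell (33.3%, against 10.5% of all genes) and 3 rose (12.5%, against 6.59% of all genes). Cldn7, a tight junction protein, measured 1775, 1789 and 1848 in ddH2O and 1192, 904 and 1448 in VC (-0.64 ± 0.16, adjusted p = 0.045, count 2). Zeb1, a repressor of epithelial genes, measured 789.9, 760.5 and 815 in ddH2O and 1206, 1093 and 1249 in VC (0.58 ± 0.069, adjusted p = 0.0081, count 6), while Snai1, another such repressor, fell (-0.34 ± 0.057, count 4), and fibronectin, Fn1, and Grhl2 rose (0.31 ± 0.082 and 0.28 ± 0.065, counts 1 and 0). The falls of the adhesion list were 1 without ddH2O 2, 2 without VC 1, and 3 without ddH2O 1, and its rises 1 without ddH2O 1, ddH2O 2, ddH2O 3, VC 1 or VC 3. For the adhesion list the rises numbered 1 without the filter, and the falls numbered 5 with spike-in scaling.

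Of 28 collagen genes 6 fell (21.4%, against 10.5% of all genes) and none rose (median -0.13). The median level of this list was 86.8, and in the dimmest bin and the next 485 and 580 of 3633 genes fell. Col16a1 measured 176, 175 and 171 in ddH2O and 116, 132 and 120.5 in VC (-0.51 ± 0.066, adjusted p = 0.0091, count 6), and Col7a1 and Col1a1 fell too (-0.53 ± 0.071 and -0.54 ± 0.13, counts 5 and 2), the latter with -0.07 in a second probe. The falls were 1 without ddH2O 2, and 3 without ddH2O 1 or VC 1. For the collagens the falls numbered 3 with the mean of all probes, and the median was -0.08 with median scaling, -0.09 with spike-in scaling, -0.04 with normexp, -0.05 without background subtraction and -0.07 with the mean of all probes. Of 13 fibroblast markers 3 fell (23.1%, against 10.5% of all genes), Thy1 (-0.61 ± 0.075, count 6), Col1a1 and Col5a1 (-0.29 ± 0.050, count 3). The summed level of these markers, given above, was lower in VC. Its part in the collagen differences was not tested. The falls among these markers were 1 without ddH2O 1 or ddH2O 2, and under other processing the falls numbered 1 with the mean of all probes. Of 26 genes of laminins, integrins and matrix 5 fell (19.2%, against 10.5% of all genes), among them Lamb1 (-0.44 ± 0.076), Itgb3 (-0.36 ± 0.068) and Nid1 (-0.32 ± 0.067), and 2 rose (7.7%, against 6.59% of all genes), Itga5 (0.45 ± 0.073) and Fn1. Their leave-one-out counts were 3, 2, 2 and 3, and the falls were 0 without ddH2O 1, ddH2O 2 or VC 1, 2 without ddH2O 3 or VC 3, and 3 without VC 2. For the matrix list the falls numbered 1 without the filter, 2 with spike-in scaling or without background subtraction and 3 with median scaling.

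Genes of other lineages were called in both directions. Of 20 primitive endoderm genes 4 fell (20%, against 10.5% of all genes) and none rose. The clearest was Amn, amnionless, at 229.6, 212 and 223 in ddH2O and 160.4, 169 and 170.3 in VC (-0.41 ± 0.058, adjusted p = 0.011, count 6), followed by Lamb1 and Pdgfra (-0.32 ± 0.082, count 1), while the summed level of the list overlapped, 19000 to 21400 in ddH2O and 18200 to 20710 in VC. The falls of this list were 1 without ddH2O 1, ddH2O 2 or VC 1, and 2 without VC 2 or VC 3, and under other processing the falls numbered 2 with median scaling, with spike-in scaling or without background subtraction. Of 20 neuroectoderm genes 3 fell (15.0%, against 10.5% of all genes), among them Map2 (-0.72 ± 0.18) and Pax6 (-0.32 ± 0.073). In the same list 2 rose (10%, against 6.59% of all genes), Zic2 and Neurog3 (0.41 ± 0.10). Of 19 streak and mesoderm genes Hand2 (-0.61 ± 0.13) and Snai1 fell (10.5%, the share of all genes). Mesp2 rose (0.36 ± 0.062, 5.3% of the list, against 6.59% of all genes). Of 23 genes of retinoic acid response, receptors and synthesis 5 fell (21.7%, against 10.5% of all genes), among them Foxa1 (-0.79 ± 0.15), Cyp26b1 (-0.60 ± 0.095) and Cdx1 (-0.43 ± 0.10). The median level of this list was 117, and in the dimmest bin and the next 485 and 580 of 3633 genes fell. Of 21 Hox genes 1 fell (4.8%, against 10.5% of all genes), Hoxb7 (-0.31 ± 0.053). Counts for Map2, Pax6, Neurog3 and Hand2 were 1, 1, 1 and 1, and for Mesp2, Foxa1, Cyp26b1, Cdx1 and Hoxb7 4, 3, 4, 0 and 4. Of 28 imprinted genes 5 fell (17.9%, against 10.5% of all genes), among them Cdkn1c (-0.41 ± 0.074), Igf2 (-0.41 ± 0.091) and Sgce (-0.40 ± 0.075). Another 2 rose (7.1%, against 6.59% of all genes), Mcts2 (0.32 ± 0.076) and Zrsr1 (0.27 ± 0.049). The counts of these named imprinted genes were 2, 0, 2, 1 and 3. Their falls were 0 without ddH2O 1, ddH2O 2 or VC 1, 1 without VC 3, and 2 without ddH2O 3. For the imprinted list the falls numbered 2 without the filter and 3 without background subtraction. Falls of the neuroectoderm list numbered 0 without ddH2O 1, ddH2O 2 or VC 1, and 1 without VC 2 or VC 3, and under other processing the falls numbered 0 with median scaling, with normexp or without the filter and 1 with spike-in scaling, with quantile normalization, with cyclic loess or without background subtraction. Those of the retinoic acid list numbered 0 without ddH2O 1 or ddH2O 2, 1 without ddH2O 3, and 2 without VC 1, VC 2 or VC 3, and under other processing the falls numbered 1 without the filter, 2 with spike-in scaling, with normexp or without background subtraction and 3 with median scaling.

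Interferon and stress genes fell in part. Of 23 genes of the interferon response 6 fell (26.1%, against 10.5% of all genes) and none rose (median -0.18). These falls numbered 1 without ddH2O 1 or ddH2O 2, and 2 without ddH2O 3, VC 1 or VC 3. For the interferon list the falls numbered 2 with spike-in scaling or without the filter, and the median was -0.08 with normexp and -0.12 without background subtraction. Psmb8, an immunoproteasome subunit, measured 279, 279 and 287 in ddH2O and 179, 210.1 and 184 in VC (-0.56 ± 0.074, adjusted p = 0.0093, count 6). H2-K1, an MHC class I gene, and Oasl2 also fell (-0.42 ± 0.076 and -0.44 ± 0.11, counts 4 and 0). Of 23 genes of ATF4 and endoplasmic reticulum stress 5 fell (21.7%, against 10.5% of all genes). That number became 1 without ddH2O 1, and 2 without ddH2O 2, ddH2O 3, VC 1 or VC 2. For the stress list the falls numbered 2 with median scaling, with spike-in scaling or without the filter. Herpud1, which helps clear misfolded proteins, measured 973, 888 and 895 in ddH2O and 657, 629.6 and 638 in VC (-0.52 ± 0.059, adjusted p = 0.0078, count 6), and Chac1, which degrades glutathione, measured 2423, 2148 and 2733 in ddH2O and 1670.4, 1411 and 1452 in VC (-0.68 ± 0.11, adjusted p = 0.014, count 5). The stress factor Ddit3 fell too (-0.29 ± 0.077, count 1). Among 16 heat shock chaperones the inducible Hspa1a fell, at 827, 829 and 773 in ddH2O and 483, 561 and 522 in VC (-0.63 ± 0.072, adjusted p = 0.0078, count 6). It has a near-identical neighbour, Hspa1b, from which its probe may not be told apart. The small chaperone Hspb1 and the abundant Hsp90ab1 rose (0.32 ± 0.054 and 0.24 ± 0.062, counts 4 and 0).

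Hypoxia-inducible factor is destroyed after hydroxylation by the ascorbate-dependent Egln enzymes. Of 24 genes that encode its subunits or are its targets 3 fell and none rose (12.5%, near the 10.5% of all genes), with a median of -0.17. Car12, a carbonic anhydrase, measured 142, 138 and 147 in ddH2O and 92.5, 95.4 and 102 in VC (-0.56 ± 0.060, adjusted p = 0.0072, count 6). Ndrg1 (-0.48 ± 0.092, count 3) and Pfkfb4 (-0.21 ± 0.051, count 0) were the others, and the falls numbered 1 without ddH2O 1, ddH2O 2 or VC 1. For the hypoxia list the falls numbered 1 without the filter, 5 with normexp and 7 with trend and robust variance, and the median was -0.10 with the mean of all probes. Hif1a itself measured 1089, 1032 and 873 in ddH2O and 1215, 1122 and 1214 in VC, with groups that did not overlap, and was not called (0.25 ± 0.094, adjusted p = 0.11). Of 23 glycolysis genes 1 fell, Pfkp at 5047, 5318 and 4532 in ddH2O and 3154, 3579 and 3334 in VC (-0.56 ± 0.082, adjusted p = 0.011, count 5), a share below that of all genes.

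None of 30 respiratory chain genes and none of 39 cytosolic ribosomal protein genes was called in either direction. Of 28 genes of the G1/S transition and replication 3 fell, a share close to that of all genes, and this number became 1 without ddH2O 1, ddH2O 2 or VC 1. The clearest of them was Ccnd2, cyclin D2, at 439, 462 and 495 in ddH2O and 237, 244 and 270.4 in VC (-0.89 ± 0.076, adjusted p = 0.0051, count 6), with -1.03 to -0.79 in its other probes. Cdkn1c was also among the falls. Of 24 mitosis genes Cdc20 and Ccnf rose (0.23 ± 0.060 and 0.21 ± 0.052), both with a count of 0. They were 8.3% of the list, against 6.59% of all genes. Of 22 genes, the p53 gene and p53 targets, Perp (-0.45 ± 0.066, count 5) and the death receptor Fas (-0.38 ± 0.081, count 2) fell. They were 9.1% of the list, against 10.5% of all genes. Of 20 genes of iron handling 3 rose (15.0%, against 6.59% of all genes) and 1 fell (5.0%, against 10.5% of all genes). Ftl1, the ferritin light chain, rose at 44713, 45198 and 47809 in ddH2O and 61360, 57991 and 65090 in VC (0.42 ± 0.065, adjusted p = 0.013, count 4), as did Pcbp2 (0.25 ± 0.061, count 0), and Tfr2, a transferrin receptor, fell (-0.64 ± 0.095, count 5). For the iron list the rises numbered 0 without ddH2O 2 or VC 1, and 1 without ddH2O 1 or ddH2O 3, and under other processing the rises numbered 1 with quantile normalization, with cyclic loess, with normexp, in the deposited series values or without the filter and 5 with median scaling or with trend and robust variance. Of 30 polycomb genes 2 rose (6.7%, against 6.59% of all genes), Pcgf2 and Pcgf1 (0.56 ± 0.14 and 0.42 ± 0.10). A further 2 fell (6.7%, against 10.5% of all genes), among them Cbx8 (-0.88 ± 0.18). The counts of Pcgf2, Pcgf1 and Cbx8 were 1, 0 and 2.

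**Figure D4:**
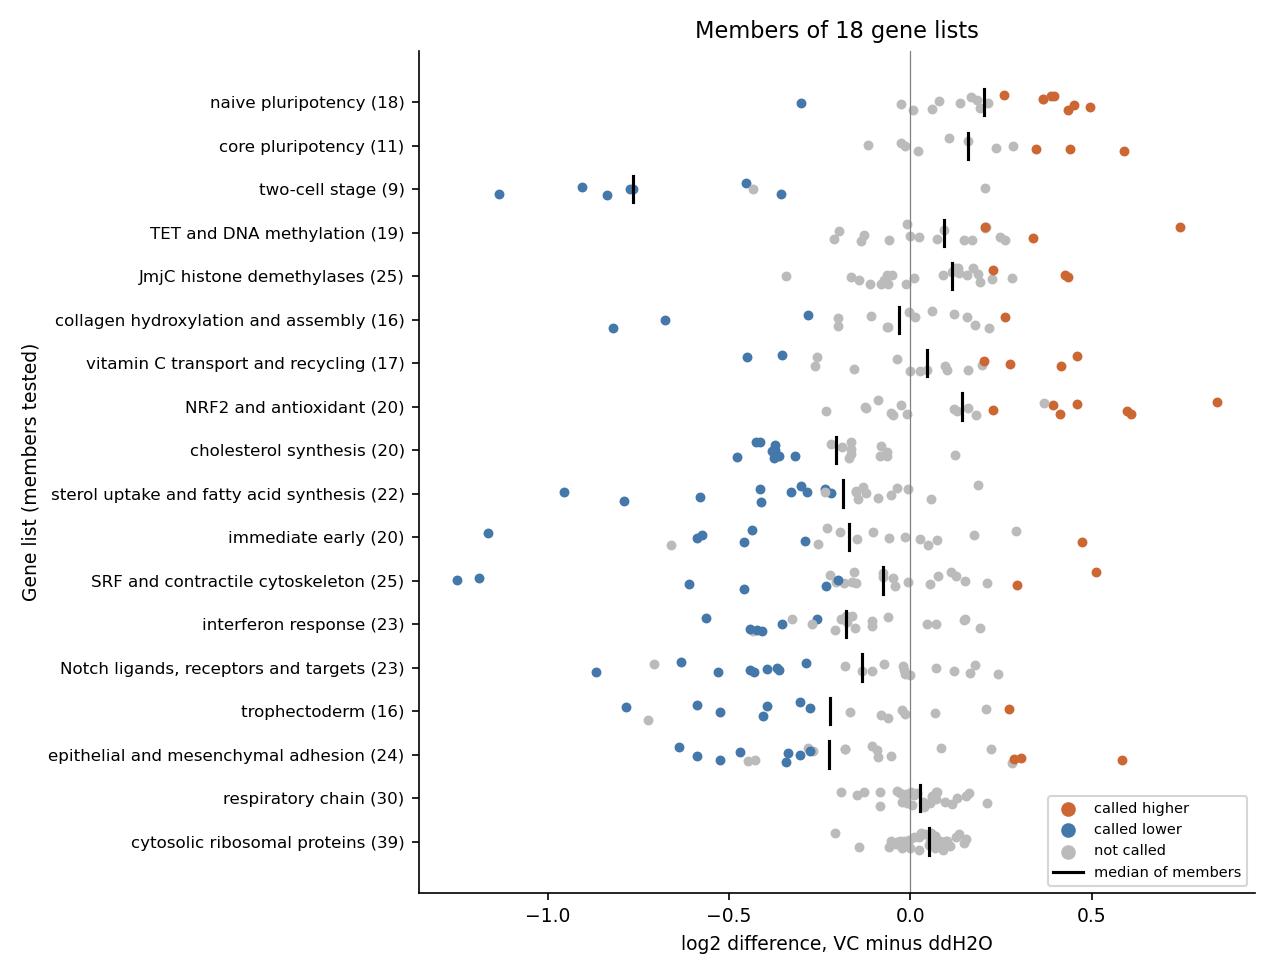
Each point is a member of 1 of 18 gene lists (y axis, with the number tested), placed at its log2 difference, VC minus ddH2O (x axis); orange members were called higher, blue lower and grey not called, and black lines are medians. The two-cell list has the lowest median, -0.76 (-0.37 with normexp), the naive pluripotency list the highest, 0.20, and the respiratory chain and ribosomal lists lie close to 0 with no call.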

How the data were processed

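Total RNA was labelled with Cy3 and hybridised to Agilent one-colour arrays, 1 sample to an array. Spot intensities came as deposited from Agilent Feature Extraction (10.7.3.1 in the file headers, 10.7 in the submitters' processing notes), which subtracts the background and detrends each array, per the file headers. The authors' deposited series table of log2 values, for which the sources used here give no normalization step, served as an alternative.

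From the spot intensities, log2 was taken and each array was set to the same 75th percentile of its non-control spots, outlier spots included. Spots marked as outliers were then left out, the spots of a probe were averaged and the brightest probe stood for its gene. Only the 6 VC and ddH2O arrays were used. The files hold accessions and no gene names, so these were matched without versions to symbols through a RefSeq table for GRCm38.p6. Genes well above background on 3 or more arrays were fitted with limma 3.58.1 (lmFit and eBayes) in R 4.3.3, with Benjamini-Hochberg adjustment over all of them and a threshold of 0.05. Only the limma fit was run on simulated data, with independent noise, which tests neither the steps before the fit nor slide differences. The number of arrays limits the precision.

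The comparison and the gene lists were chosen with earlier results of these data known, and lists were counted, not tested. Genes were named by rule. It took the 12 largest rises and the 12 largest falls among called genes whose groups did not overlap, which held for every called gene. It also took up to 3 of each per list, and a set named whatever their values, while clone-like names were passed over. Gclm, Hmgcs1, Filip1l and Actg1 are shown for a motif match, and genes said to be looked at later lie outside the rule, as do Gclc, Fgf13, Krt8 and Zscan4c. Some genes that the rule names are not reported here. Replicate numbers are in the labels, but samples of the same number did not deviate together (correlations of -0.117, 0.060 and -0.066), so they were not used as pairs.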

Additional observations from a re-analysis of the deposited data

How the results depend on the processing

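Over all 6 arrays 958 genes were called higher and 1533 lower. Each of the 2491 called genes kept its sign in every refit that used the same probes and spots, which the absence of overlap fixes where arrays were left out. The count of rises became 1511 with arrays scaled to the median, 298 with no filter on dim probes, 1567 with an intensity trend and robust variance, 1810 at an adjusted p under 0.1 and 38 at 1.5-fold or more. The count of falls became 1021 with no background subtraction, 706 with no filter and 348 at 1.5-fold or more. Leaving out 1 array gave 62 to 741 rises and 335 to 1220 falls, the lowest of both without ddH2O 2. With the slide as a block the counts were 0 and 0. Within the shared slide, trend and robust variance, added after seeing the data, gave 787 and 1258. With the replicate number as a block, which does not pair these samples, there were 271 rises and 684 falls. The other planned settings, quantile normalization, spike-in scaling, normexp, the deposited series values, detection on all arrays, the mean of all probes, outlier spots kept and slide as a random block, moved both counts by less than 1.5 times. Dppa3, -0.30 and called, was 0.18 in the deposited series values and 0.19 with outlier spots kept. The causes of these changes were not tested. The files hold no mean signal column, so normexp ran on the median signal. With 3 arrays a group and low signal in many genes, small differences of dim genes could not be resolved.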

Other observations

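Of 13695 probes that matched no gene symbol, 6663 were well above background on enough arrays to be tested, and 0 were higher and 1 was lower in VC when limma p-values were adjusted over those probes. Adjusted together with all 28160 detected probes, a setting added after seeing the data, 153 were higher and 215 lower.

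Some genes stood apart on 1 array. On VC 3, which was alone on its slide and scan day, 8 genes lay more than 2 log2 units above all other arrays and 7 as far below, against 0 to 3 in either direction on each of the other arrays. The gene furthest apart, found by looking through the values, was Vtn, vitronectin, which measured 11.4, 7.19 and 13.6 in ddH2O, 10.9 and 7.90 in VC 1 and VC 2, and 1176 in VC 3. It was not called.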
